A study of Homo sapiens with 6 samples.

Results

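Transcript levels of the autophagy machinery were compared between the human melanoma lines WM115, derived from the primary tumour in skin, and WM266-4, derived from a metastasis to skin. The genes were 39 named components of the pathway, from the initiating kinases to the cargo receptors, and each was found by its symbol among the 17752 genes of the authors' gene-named table. Both lines were untreated and grown in DMEM with 10% foetal bovine serum, and each was represented by 3 biological repeats, giving 6 Affymetrix gene-level arrays. The first repeat of each line used the miRNeasy micro kit and a Human Gene 1.0 ST array, whereas repeats 2 and 3 used the GeneAll Hybrid-R miRNA kit and the Human Gene 2.1 ST array. Each stage was represented by 1 line, so a difference between stages and a difference between these lines cannot be told apart. Levels are log2 signals as deposited, errors of levels are SDs over the 3 arrays of a line, and differences are WM266-4 minus WM115 with the standard error (SE) of the fit. Calls are genes with a Benjamini-Hochberg adjusted p below 0.05 in a limma fit over all 12426 genes tested, and "rose" and "fell" refer to calls in WM266-4.

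Autophagy delivers cytoplasm, protein aggregates and organelles to the lysosome inside a double-membraned vesicle, the autophagosome. A kinase complex starts the process, a class III phosphoinositide kinase complex marks the membrane, and lipid transfer proteins let it grow. Ubiquitin-like conjugation systems then attach ATG8 family proteins to the membrane, and these bind receptors that carry the cargo. In melanocytes the same machinery is linked to melanosome formation, and in melanoma it is known as a route of survival under nutrient and drug stress.

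The array medians over the genes tested lay between 6.12 and 6.18. The deposited values carry almost no mean shift between array versions: for the 39 autophagy genes the mean over the 1.0 pair and the mean over the 2.1 arrays differed by at most 0.0204 log2. A line's first-repeat level is thereby tied to that of the other line, which enters every SD below. The melanocyte lineage markers SOX10 (7.90 and 8.09 in WM115 and WM266-4) and S100B (9.58 and 9.72) were high in both lines. Of 8 melanocytic markers 6 rose (75%, beside 13.6% of all genes tested). Among the 6, TYR, TYRP1, DCT, PMEL and MLANA had WM115 means under 3.972, the level required of the mean over all 6 arrays. They were tested only through their WM266-4 signal. The mean level of the melanocytic list was 4.44 to 5.004 in WM115 and 7.96 to 8.58 in WM266-4. Markers of other cell types lay mostly below the level needed for testing, namely 7 of 8 keratinocyte, 6 of 8 leukocyte and 3 of 5 endothelial markers. DSP, CD68 and KDR, of these 3 lists in turn, fell. CD68 fell by -1.76, from 9.81 in WM115 to 8.05 in WM266-4, and KDR by -1.91, from 6.515 to 4.61. CSF1R and CLDN5, the other tested genes of these lists, were not called. The WM266-4 mean of DSP was under 3.972, so DSP was tested only through its WM115 signal. The mean levels of the lists were 3.51 to 3.69 against 3.17 to 3.38 for keratinocytes, 3.95 to 4.22 against 3.83 to 4.09 for leukocytes and 4.10 to 4.26 against 3.81 to 3.91 for endothelium in WM115 and WM266-4. Of 8 fibroblast markers 7 were tested, 1 rose and 2 fell, with mean levels of 4.73 to 5.003 and 4.93 to 5.16. These means hide large differences of single genes. COL1A2 rose by 4.48, from 4.68 in WM115 to 9.155 in WM266-4, whereas COL3A1 fell by -2.01 and PDGFRB by -1.02. Marker differences also varied between repeats. In the 3 pairs of repeats COL1A2 differed by 1.85, 5.62 and 5.96. CD68 differed by -0.37, -2.44 and -2.47 and S100B by -1.17, 0.93 and 0.68. A limma test of the line difference between array versions (adjusted p under 0.05) called S100B, MLANA, PMEL, DCT, COL1A2, PDGFRB, DSP and CD68. The other markers tested were not called in it, and 5.47% of all genes were. The WM266-4 means of COL3A1 and PDGFRB were under 3.972, so both were tested only through their WM115 signal. Whether any of these shifts plays a part in the autophagy genes was not tested.

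Autophagy genes were called lower in WM266-4 more often than higher. Of 38 tested, 11 fell, 3 rose and 24 were not called, so 36.8% were called beside 26.9% of all genes tested. The share that fell was 28.9% beside 13.3% of all genes, and the share that rose was 7.89% beside 13.6%. The genes that fell were GABARAPL1, ATG16L1, EPG5, MAP1LC3A, RB1CC1, WIPI2, SQSTM1, ATG12, ATG10, ATG7 and ULK1, and those that rose were ATG2B, WIPI1 and ULK2. The median difference of the 38 genes was -0.16 log2, against 0.01 for all genes, and it was -0.16, -0.17 and -0.30 in the 3 pairs of repeats. Differences were modest, from -1.19 to 0.56, and only GABARAPL1 and ATG16L1 passed an absolute difference of 1 log2. In 22 of the 38 genes the 3 arrays of one line all lay above the 3 of the other, or 57.9% beside 51.7% of all genes tested. The signal comes from whole cultures, so fewer expressing cells and less RNA per cell cannot be told apart.

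**Figure D1:**
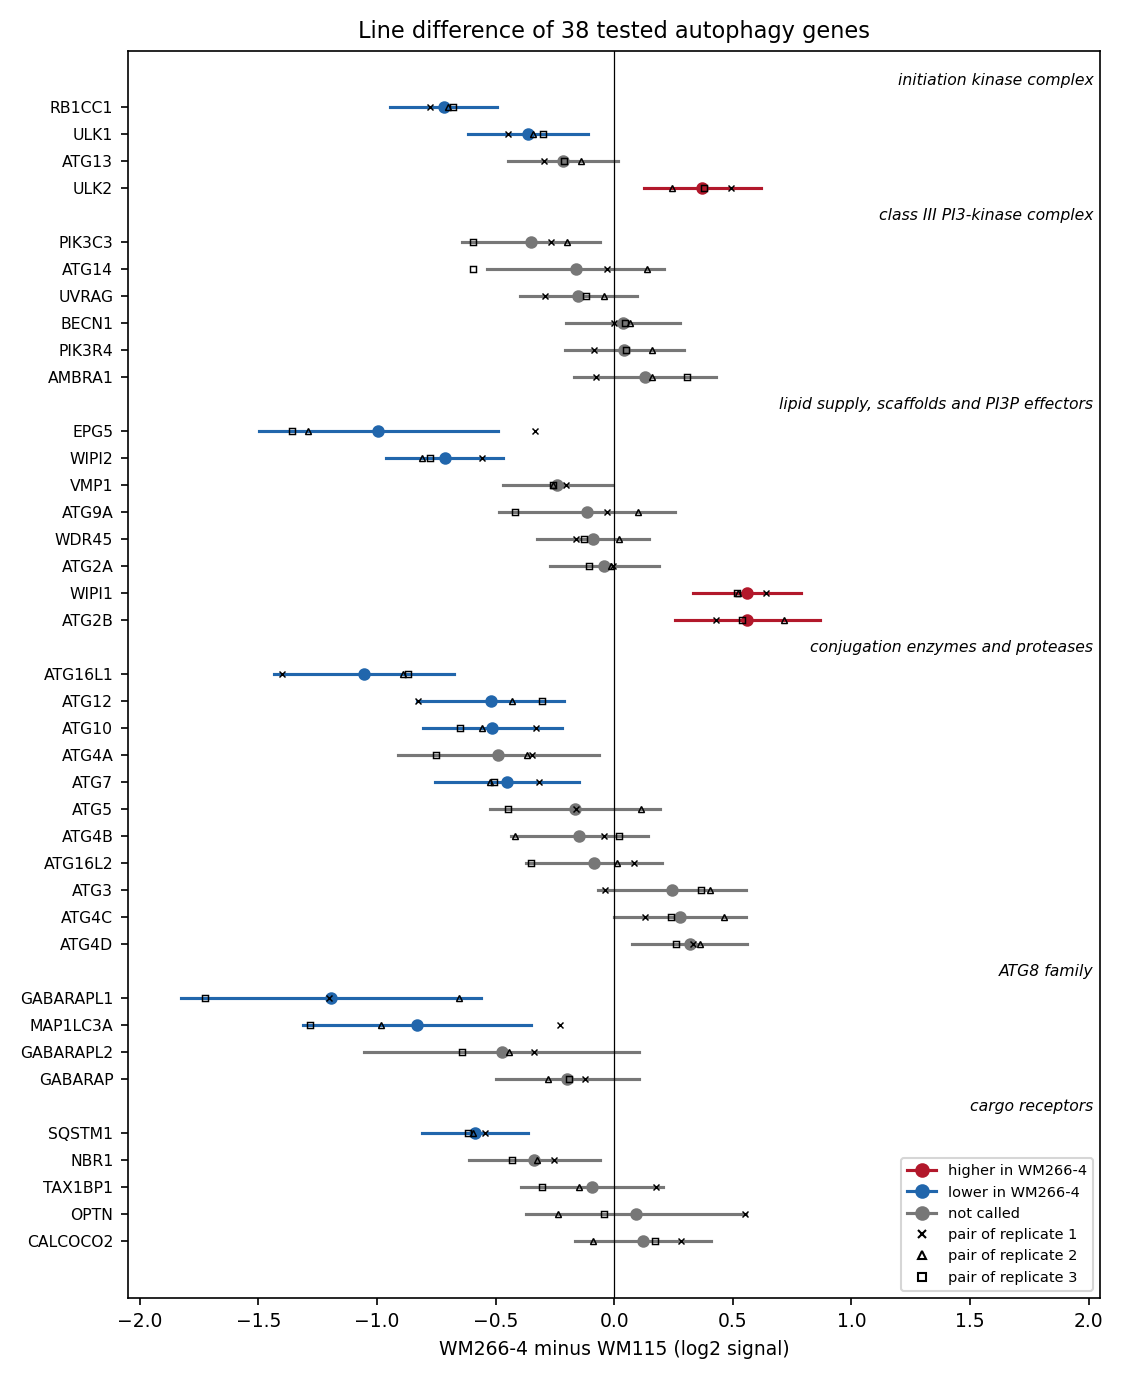
Fitted line difference (circles, log2 signal, WM266-4 minus WM115) with its 95% interval (bars) for the 38 tested autophagy genes, grouped by role, with the difference of each pair of same-numbered replicates as open symbols. Blue genes were called lower and red genes higher in WM266-4; the 11 lower genes reach from -0.36 to -1.19 and the 3 higher ones from 0.37 to 0.56.

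The calls differed in how far they rested on single arrays. RB1CC1, WIPI1, WIPI2, ATG16L1 and SQSTM1 were called on leaving out any 1 of the 6 arrays. Each of the other 9 lost its call on leaving out at least 1 array. The counts fell to 5 lower and 1 higher without WM115 replicate 2 or WM115 replicate 3, to 4 lower and 1 higher without WM266-4 replicate 2, and to 4 lower and 2 higher without WM266-4 replicate 3. Over all genes tested, the 3340 calls (26.9%) fell in these 4 fits to 1778 (14.3%), 1808 (14.6%), 1400 (11.3%) and 1696 (13.6%). Without WM115 replicate 1 or WM266-4 replicate 1 the difference rests on repeats 2 and 3, and 9 autophagy genes fell and 2 rose. Those 11 are 28.9% of the 38 tested, below the 31.5% of all genes (3913) called in the same fit. The higher share of calls in either direction was therefore not seen on the later repeats alone. Shares of all genes by direction are not given for that fit, so the excess of genes that fell cannot be judged from it.

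Initiation begins with the kinases ULK1 and ULK2 and their partners ATG13 and RB1CC1, a large scaffold also known as FIP200. The scaffold fell and the paralogous kinases moved in opposite directions. RB1CC1 read 6.87, 6.81 and 6.83 on the WM115 arrays and 6.10, 6.11 and 6.15 on the WM266-4 arrays. All 3 WM266-4 arrays were lower and the arrays of a line lay within 0.034 (SD), so the difference of -0.72 (SE 0.09, limma adjusted p = 0.0040) was well beyond their spread. ULK1, the principal starvation-responsive kinase, read 6.11, 6.12 and 5.96 in WM115 and 5.66, 5.78 and 5.66 in WM266-4, again without overlap. Its difference was -0.36 (SE 0.11, limma adjusted p = 0.047). ULK2 read 5.42, 5.53 and 5.51 in WM115 and 5.92, 5.77 and 5.89 in WM266-4, every WM266-4 array being higher. Its difference was 0.37 (SE 0.10, limma adjusted p = 0.040). ATG13, the regulatory subunit, was not called at -0.22 (95% interval -0.45 to 0.02), although its arrays did not overlap. The ULK1 and ULK2 calls were lost on leaving out any 1 of the 6 arrays, with limma adjusted p from 0.072 to 0.149 for ULK1 and from 0.094 to 0.132 for ULK2. The ULK1 call was also lost with an intensity-trended prior (limma adjusted p = 0.055).

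**Figure D2:**
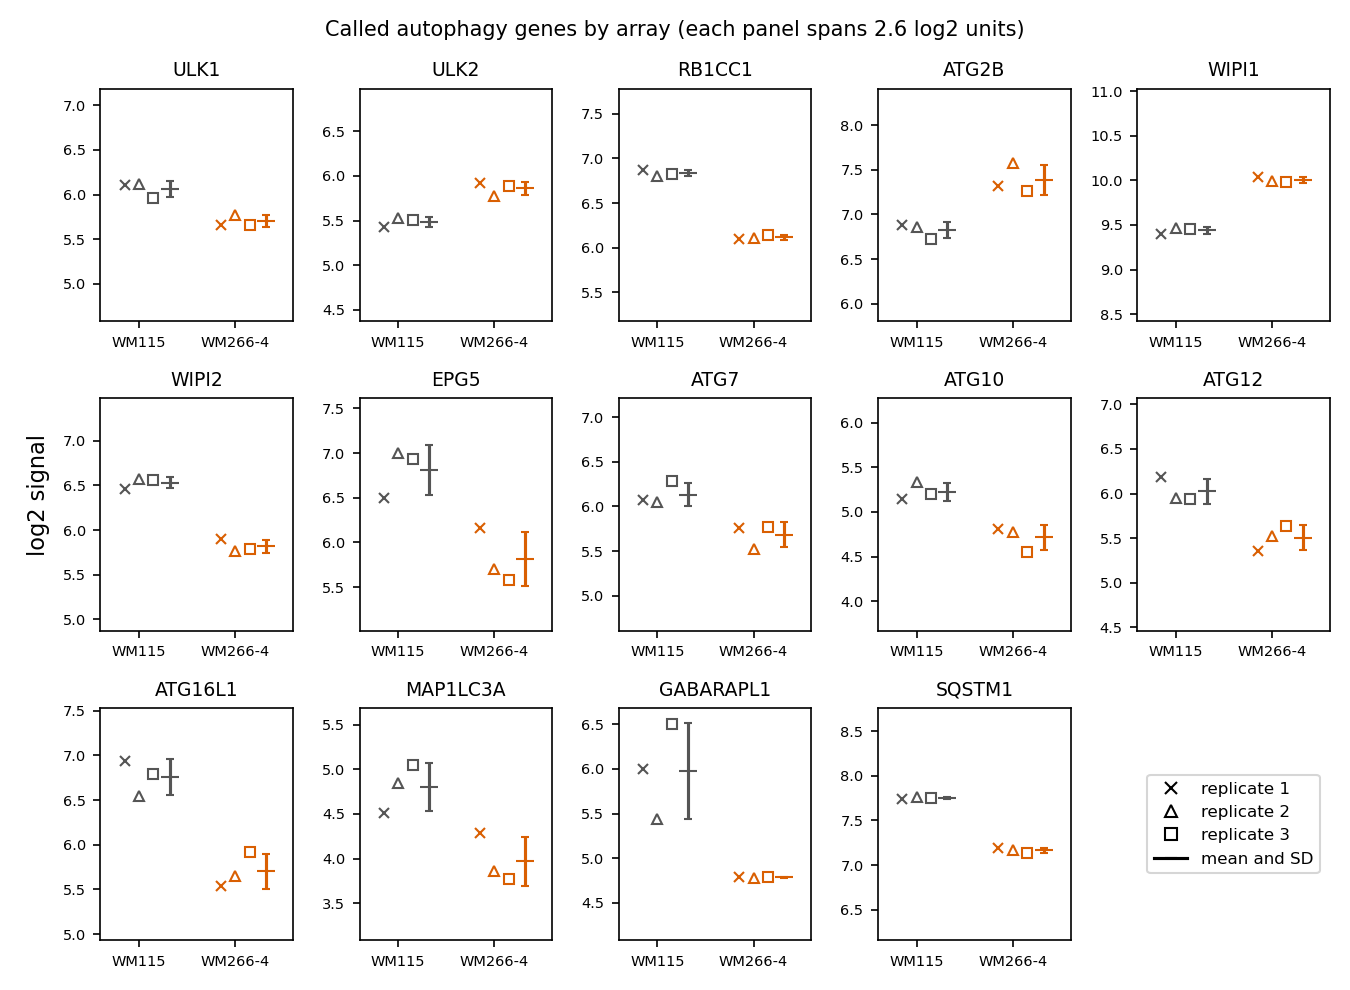
Log2 signal of the 14 called autophagy genes on each array, with replicates 1, 2 and 3 as crosses, triangles and squares and the mean with its SD at the right of each line. Panels share a span of 2.6 log2 units but not an origin, so slopes may be compared and levels of different genes may not. GABARAPL1 spans 5.44 to 6.51 in WM115 and lies at 4.78 to 4.79 in WM266-4, while the arrays of each line nearly coincide for SQSTM1 and WIPI1.

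The class III phosphoinositide kinase complex, which marks the growing membrane, had no called member, beside 26.9% of all genes tested. At such a share 6 genes are too few for a count of 0 to be read as a difference. Of the 6 genes of the complex, 3 had a positive and 3 a negative difference, with a median of -0.06. PIK3C3, the catalytic subunit, had the largest at -0.35 (95% interval -0.64 to -0.06, limma adjusted p = 0.077). Its arrays read 7.95, 7.85 and 8.17 in WM115 and 7.68, 7.66 and 7.57 in WM266-4, so the lines did not overlap. BECN1, the scaffold that binds both regulators and inhibitors, read 8.46, 8.37 and 8.49 in WM115 and 8.46, 8.43 and 8.54 in WM266-4. Its difference of 0.04 (95% interval -0.20 to 0.28) lay within the spread of the arrays. The kinase-like subunit PIK3R4 was at 0.04 (95% interval -0.21 to 0.29) and AMBRA1, a partner of BECN1, at 0.13 (95% interval -0.17 to 0.43). ATG14, which directs the complex to autophagosome sites, was at -0.16 (95% interval -0.53 to 0.21), and UVRAG, its counterpart on endosomes, at -0.15 (95% interval -0.40 to 0.10).

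Proteins that supply lipid to the membrane, read its phosphoinositide mark or tether it to the lysosome moved both ways, with 2 rising, 2 falling and 4 not called. The shares were 25% each, beside 13.6% of all genes tested that rose and 13.3% that fell. WIPI1, a propeller protein that binds the phosphoinositide mark, read 9.40, 9.47 and 9.46 in WM115 and 10.04, 9.99 and 9.98 in WM266-4. It was higher on every WM266-4 array, by 0.56 (SE 0.10, limma adjusted p = 0.0087). Its relative WIPI2, which recruits ATG16L1 to the same mark, read 6.46, 6.57 and 6.56 in WM115 and 5.91, 5.76 and 5.78 in WM266-4. WIPI2 was lower on every WM266-4 array, by -0.71 (SE 0.10, limma adjusted p = 0.0053). ATG2B, a lipid transfer protein, read 6.88, 6.86 and 6.72 in WM115 and 7.31, 7.58 and 7.26 in WM266-4. ATG2B rose by 0.56 (SE 0.13, limma adjusted p = 0.023), whereas its paralog ATG2A was at -0.04 (95% interval -0.27 to 0.19). The ATG2B call was lost without WM115 replicate 2, WM115 replicate 3 or WM266-4 replicate 2 (limma adjusted p from 0.069 to 0.087).

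EPG5, a tether between autophagosome and lysosome, read 6.49, 6.998 and 6.94 in WM115 and 6.16, 5.71 and 5.58 in WM266-4. The lines did not overlap, and the difference was -0.99 (SE 0.21, limma adjusted p = 0.018), but it was far smaller in the first pair (-0.33) than in the later ones (-1.29 and -1.36). In a limma test of the line difference between array versions the later repeats were lower by -0.99 (SE 0.22, adjusted p = 0.040). EPG5 was the only 1 of the 38 autophagy genes called in that test, beside 5.47% of all genes. Without any 1 array of repeats 2 or 3 its call was lost (limma adjusted p from 0.071 to 0.081). The other genes of this group were not called: the lipid scramblase ATG9A was at -0.11 (95% interval -0.48 to 0.26), the endoplasmic reticulum scramblase VMP1 at -0.24 (-0.47 to -0.01) and the propeller protein WDR45 at -0.09 (-0.32 to 0.14). ATG9A had 2 rows in the table, and the dimmer row, which was not used, had the opposite sign (0.19).

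Of the 11 conjugation enzymes and proteases, 4 fell, 0 rose and 7 were not called, so 36.4% were called beside 26.9% of all genes tested. Among the 7 not called, ATG4A had a negative difference at an unadjusted limma p of 0.030. ATG4D had a positive one at an unadjusted limma p of 0.018. The 4 that fell are known from the branch that joins ATG12 to ATG5 and places it on the membrane. ATG16L1, which anchors that conjugate where ATG8 proteins are attached, read 6.94, 6.54 and 6.79 in WM115 and 5.54, 5.65 and 5.92 in WM266-4. All WM266-4 arrays were lower, and the difference was -1.05 (SE 0.16, limma adjusted p = 0.0061), a mean signal 2.08 times higher in WM115. ATG12, the ubiquitin-like modifier, read 6.18, 5.95 and 5.94 in WM115 and 5.36, 5.52 and 5.63 in WM266-4. It fell by -0.52 (SE 0.13, limma adjusted p = 0.029), with no overlap between lines. ATG10, the conjugating enzyme of ATG12, read 5.14, 5.33 and 5.203 in WM115 and 4.81, 4.78 and 4.55 in WM266-4. It fell by -0.51 (SE 0.12, limma adjusted p = 0.025). ATG7, the activating enzyme shared by ATG12 and the ATG8 proteins, read 6.07, 6.05 and 6.28 in WM115 and 5.75, 5.52 and 5.77 in WM266-4. It fell by -0.45 (SE 0.13, limma adjusted p = 0.043), with all WM266-4 arrays lower.

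ATG5, the acceptor of ATG12, was not called at -0.17 (95% interval -0.53 to 0.19), and WM115 replicate 3 stood above the other arrays at 7.42. ATG3, the conjugating enzyme of the ATG8 proteins, was at 0.24 (95% interval -0.07 to 0.56) and differed by -0.04, 0.40 and 0.36 in the 3 pairs. The ATG4 proteases, which process ATG8 proteins and release them from the membrane, did not share a direction. ATG4A was at -0.49 (95% interval -0.91 to -0.07) and ATG4B at -0.15 (-0.44 to 0.14), while ATG4C was at 0.28 (0.00 to 0.56) and ATG4D at 0.32 (0.07 to 0.56). None of these was called, the limma adjusted p being 0.087 for ATG4A and 0.061 for ATG4D. ATG16L2, the paralog of ATG16L1, was at -0.09 (95% interval -0.37 to 0.20). Dropping any 1 of the 4 later arrays ended the ATG7 and ATG10 calls (limma adjusted p from 0.077 to 0.160). That of ATG12 was lost on leaving out any 1 of the 6 arrays (limma adjusted p from 0.055 to 0.102), whereas that of ATG16L1 was not (limma adjusted p at most 0.037). Without WM115 replicate 3 the ATG4A difference was -0.30.

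The ATG8 family, the ubiquitin-like proteins that coat the autophagosome, had 4 tested genes, all with negative differences, of which 2 fell. The share that fell was 50% of 4 genes, beside 13.3% of all genes tested. Negative differences were held by 6038 of the 12426 genes tested. GABARAPL1 had the largest difference of the whole set. It read 5.99, 5.44 and 6.51 in WM115 and 4.79, 4.78 and 4.78 in WM266-4. The WM115 arrays were widely spread (SD 0.54) and the WM266-4 arrays nearly identical (SD 0.005), and the difference was -1.19 (SE 0.26, limma adjusted p = 0.021), a mean signal 2.29 times higher in WM115. MAP1LC3A, a member of the LC3 branch, read 4.51, 4.84 and 5.05 in WM115 and 4.28, 3.86 and 3.77 in WM266-4. Its difference was -0.83 (SE 0.20, limma adjusted p = 0.027), and the pairs gave -0.23, -0.98 and -1.28. The test of this difference between array versions gave a limma adjusted p of 0.071. The MAP1LC3A mean in WM266-4 lay just under the level of 3.972 required of the mean over all 6 arrays, so the gene was tested only through its WM115 signal. Its call is included in the 11 that fell and in the 2 of this family.

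GABARAPL2 read 8.61, 8.32 and 9.09 in WM115 and 8.27, 7.88 and 8.45 in WM266-4, and was not called at -0.47 (95% interval -1.05 to 0.11). Leaving out WM115 replicate 3 gave -0.23, and leaving out WM266-4 replicate 2 gave -0.29. GABARAP was not called at -0.20 (95% interval -0.50 to 0.10); for both genes the 2 lines overlapped. MAP1LC3B, the family member most used to follow autophagosomes, was too dim to be tested, with 3.90 ± 0.19 in WM115 and 3.82 ± 0.22 in WM266-4 (SD, n = 3), and without a filter on dim genes its difference was -0.08 (limma adjusted p = 0.81). Its near-identical copy MAP1LC3B2 had means of 6.54 and 6.73 and was not called. Probes for these copies may not separate them, so neither level is read as that of 1 gene. The GABARAPL1 call was lost without WM266-4 replicate 2 or WM266-4 replicate 3 (limma adjusted p from 0.073 to 0.081). Dropping any 1 of the 4 later arrays ended that of MAP1LC3A (limma adjusted p from 0.090 to 0.108).

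Of the 5 cargo receptors, which link ubiquitinated cargo to ATG8 proteins, 1 fell (20%, beside 13.3% of all genes tested). SQSTM1, the best known of them, read 7.74, 7.77 and 7.75 in WM115 and 7.19, 7.17 and 7.13 in WM266-4. Its arrays agreed within 0.030 (SD) in each line and the difference was -0.59 (SE 0.09, limma adjusted p = 0.0073), so the mean signal was 1.501 times higher in WM115. SQSTM1 protein is itself degraded by autophagy, and these values are of its transcript. NBR1, an aggregate receptor related to SQSTM1, read 8.25, 8.19 and 8.43 in WM115 and 8.001, 7.86 and 8.002 in WM266-4 without overlap, and was not called at -0.34 (95% interval -0.61 to -0.06, limma adjusted p = 0.075). Receptors of damaged mitochondria and intracellular bacteria overlapped between lines: OPTN was at 0.09 (95% interval -0.37 to 0.55), CALCOCO2 at 0.12 (-0.16 to 0.41) and TAX1BP1 at -0.09 (-0.39 to 0.21). OPTN differed by 0.55 in the first pair and by -0.24 and -0.04 in the later ones.

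Across arrays, 1 of the 6 held more of the highest values than any other. WM115 replicate 3 was the highest array for 14 of the 38 genes, or 36.8%, and it was the highest for 22% of all genes tested. The corresponding counts were 6 for WM115 replicate 1 and 7 for WM115 replicate 2. GABARAPL1, GABARAPL2, ATG9A, ATG5 and ATG4A were among the genes highest in that array. Without WM115 replicate 3 the difference was -0.23 for GABARAPL2, -0.02 for ATG5, 0.05 for ATG9A, -0.30 for ATG4A and -0.89 for GABARAPL1, and the median of the 38 genes was -0.15. Its part in the single calls was measured only by leaving it out.

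E-box motifs read by the MiT/TFE transcription factors were sought because MITF differed strongly between the lines and TFEB and its relatives are known to act on autophagy genes. RefSeq promoters (GRCh38.p14, 250 bases before to 50 after the gene start) matched 34 of the 39 genes. The E-box CACGTG, read on both strands, occurred in 2 of the 34 (5.88%), in 7.43% of all 27305 promoters and in 10.3% of the 9527 promoters of genes tested. The 2 genes were ATG14 and ATG3, neither of which was called. None of the 11 promoters of called genes, 8 that fell and 3 that rose, held it. Over all genes tested, 9.02% of the promoters of genes that fell and 10.3% of those that rose held it. At such shares 11 promoters are too few for a count of 0 to be read as a difference. The sites are shown with 10 bases on each side and the E-box in capitals, 5′ to 3′ on the gene's strand, since they are the 2 places where the motif stood upstream of a gene of the set.
ATG14, chr14:55411836-55411861, minus strand: aacaaaatccCACGTGactggctctc
ATG3, chr3:112561965-112561990, minus strand: tttctcacgtCACGTGccgggagagt
The E-box began at position -21 of ATG14 and -18 of ATG3, counted from the gene start, and ATG3 had another at position 6. Longer forms that contain the E-box were rarer: the full CLEAR element of TFEB targets occurred in 0 of the 34 and 0.381% of all promoters, and TCACGTGA in ATG3 alone and 1.04% of all promoters. The related TCATGTGA, which does not contain it, occurred in 0 of the 34 and 1.01% of all. A match is a string of letters and no measured binding.

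The lists of factors and signals around the machinery held genes called in both directions. Among 10 tested transcriptional regulators of autophagy 2 rose and 2 fell (20% each), with a median of -0.08. MITF, the melanocyte relative of TFEB, rose by 2.83 (SE 0.13, limma adjusted p = 0.00014) and the stress factor ATF4 by 0.34 (SE 0.09). The stress factor DDIT3 fell by -0.80 (SE 0.12) and TFE3, another TFEB relative, by -0.49 (SE 0.12). TFEB itself was too dim to be tested, at 3.43 in both lines, and FOXO3 was not called at -0.12 (SE 0.16). Among 31 tested genes of mTORC1 and AMPK signalling, the nutrient and energy sensors upstream of the ULK kinases, 4 rose and 6 fell, with a median of 0.01. These were 12.9% and 19.4% of the list, beside 13.6% and 13.3% of all genes tested. The stress-induced sestrin SESN3 rose by 1.74 (SE 0.23) and its relative SESN2 fell by -0.78 (SE 0.22). The gamma subunits of AMPK also parted, PRKAG1 rising by 0.79 (SE 0.11) and PRKAG2 falling by -1.67 (SE 0.13), from 4.94 to 3.27, while the catalytic genes MTOR (0.15, SE 0.11) and PRKAA1 (-0.26, SE 0.12) were not called. The WM266-4 level of PRKAG2 was under 3.972, so it was tested only through its WM115 signal.

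**Figure D3:**
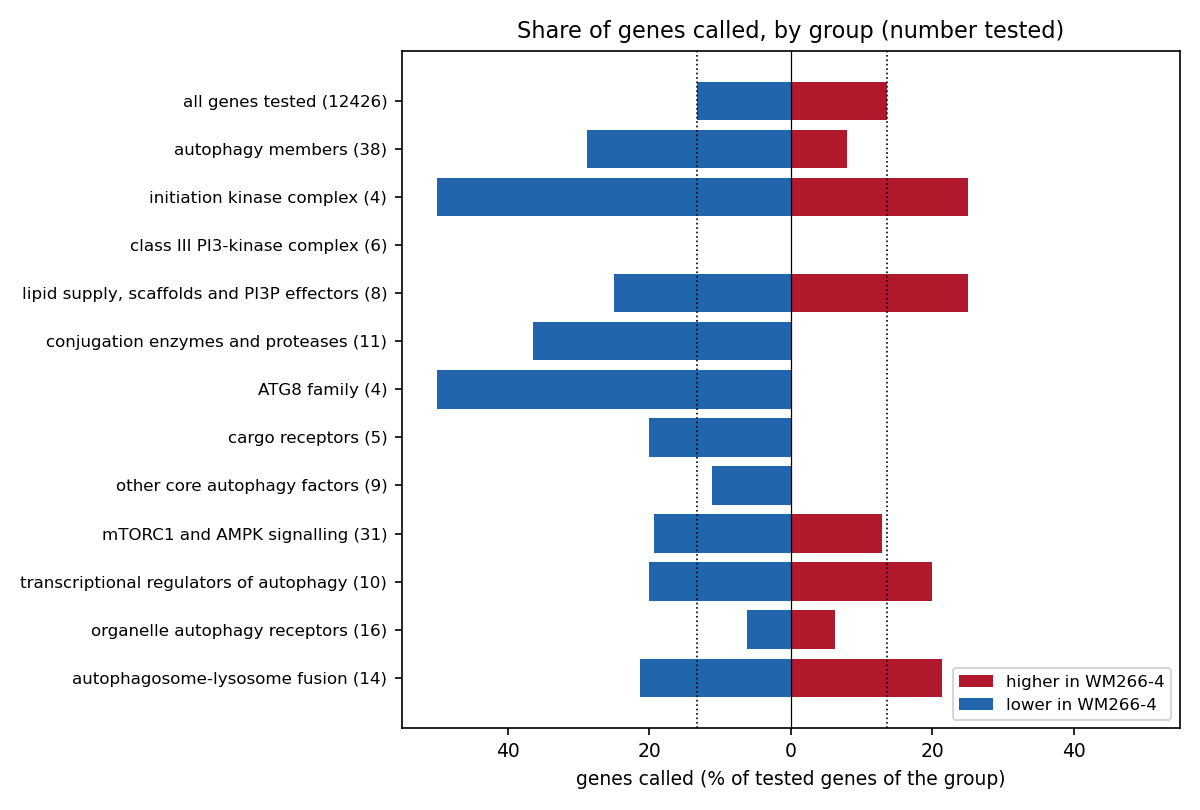
Percent of tested genes called higher (red, right) and lower (blue, left) in WM266-4 for all genes, the autophagy genes, their subgroups and 5 related lists, with the number tested in brackets. Dotted lines mark the shares of all genes, 13.6% and 13.3%; the conjugation enzymes, the ATG8 family and the cargo receptors have blue bars only and the class III kinase complex has none.

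Steps after cargo capture showed a similar mixture. Of 14 tested genes of autophagosome-lysosome fusion, 3 rose and 3 fell. The SNARE proteins STX7 and VAMP8 rose by 1.43 (SE 0.25) and 1.21 (SE 0.25), while STX17, the autophagosomal SNARE, fell by -0.52 (SE 0.11) and the tethering subunit VPS41 by -0.58 (SE 0.11). Of 16 organelle receptors and adaptors, NUFIP1 rose by 0.85 (SE 0.20) and 14 were not called. Of 9 other core factors only WDFY3, a scaffold of aggregate clearance, was called, at -0.49 (SE 0.10). The shares called in these lists were 42.9%, 12.5% and 11.1%, beside 26.9% of all genes tested. When any 1 of the 4 later arrays was dropped, the calls of WDFY3 (limma adjusted p up to 0.076), TFE3 (0.122), NUFIP1 (0.108), VAMP8 (0.070) and STX17 (0.096) were lost, and that of ATF4 (0.157) was lost on leaving out any 1 of the 6 arrays. Without WM266-4 replicate 3 the call of VPS41 (0.055) was lost. The SESN2 call was lost without WM115 replicate 2, WM266-4 replicate 2 or WM266-4 replicate 3 (up to 0.148) and without the filter on dim genes (0.053), and its difference was -0.51 without WM115 replicate 3.

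Some autophagy genes lie among chromosomal neighbours that differed between the lines in the same direction. For each gene the 10 nearest tested genes on each side in RefSeq order were taken, a window chosen after the data were seen because the 20 nearest listed genes on each side held as few as 1 tested gene. Over 11660 genes the window medians had a 5th percentile of -0.39 and a 95th percentile of 0.32. Of the 38 tested autophagy genes, only GABARAPL1, OPTN and ATG4C had windows outside these percentiles. By definition the percentiles leave out 5% of all windows at each end, so such windows are not particular to the set. GABARAPL1, on chromosome 12, had neighbours with a median of -0.57, of which 12 of 20 fell and 0 rose. Its window stood at percentile 1.23, and GABARAPL1 itself was lower still at -1.19. OPTN, on chromosome 10, had neighbours with a median of 0.63 (percentile 99.3), of which 13 rose and 1 fell, while OPTN was at 0.09 and not called. ATG4C, on chromosome 1, stood among neighbours with a median of 0.40, of which 9 rose and 2 fell.

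The windows of the other called genes lay between those percentiles. The neighbours of EPG5, on chromosome 18, had a median of -0.25 with 5 of 20 falling, and those of RB1CC1, on chromosome 8, had -0.26 with 5 of 20 falling. ATG16L1, on chromosome 2, had -0.22 with 5 falling and 1 rising. ULK1 and MAP1LC3A differed in sign from their surroundings: the neighbours of ULK1, also on chromosome 12, had a median of 0.31 and those of MAP1LC3A, on chromosome 20, 0.24. The neighbours of WIPI1, ATG2B and ULK2, the 3 genes that rose, had medians of 0.11, 0.00 and 0.01. Whether a shift shared along a chromosome plays a part in any of these differences was not tested.

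**Figure D4:**
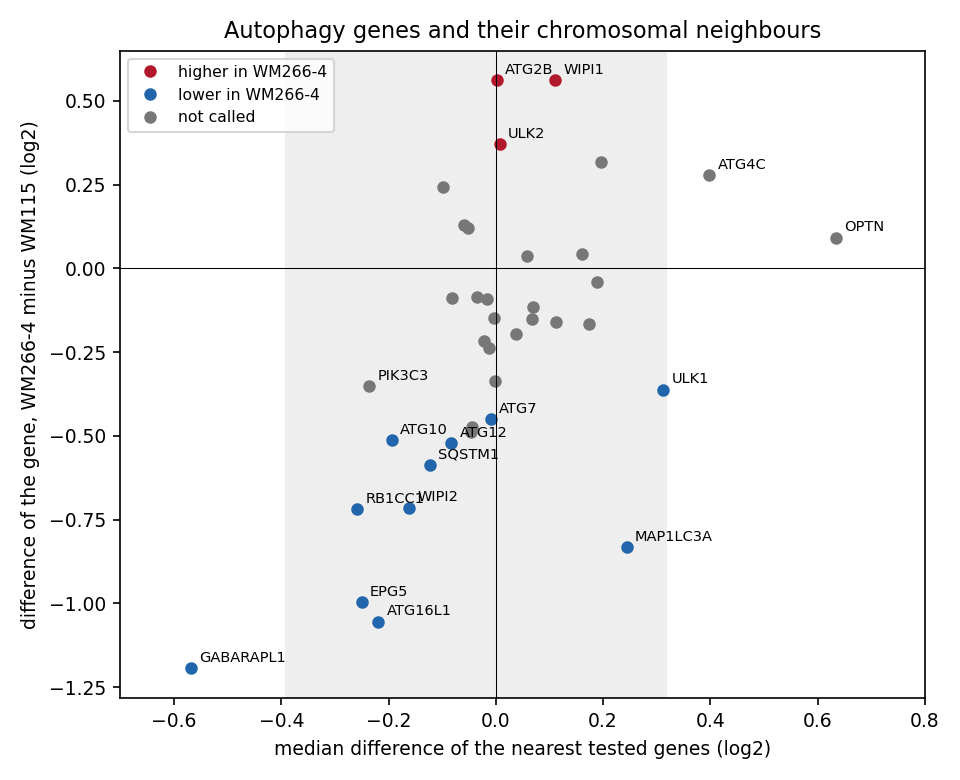
Difference of each of the 38 tested autophagy genes (vertical axis, log2, WM266-4 minus WM115) against the median difference of its nearest tested chromosomal neighbours (horizontal axis, log2). The grey band spans the 5th to 95th percentile of such medians over all genes, -0.39 to 0.32; GABARAPL1 lies left of it at -0.57, and ATG4C and OPTN lie right of it at 0.40 and 0.63.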

How the data were processed

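RNA of the melanoma lines WM115 and WM266-4 was measured on 6 arrays, 3 biological repeats per line. Values were the authors' deposited gene-level log2 signals. Expression Console (Affymetrix) and RMA are named in the submitters' processing notes; no source used here says how the 2 array versions were merged. The deposited probe-set value tables were not used here, since their probe sets are not paired with gene names. Of 18887 rows, 17 naming joined genes were left out and the brightest row per symbol was kept, leaving 17752 genes. A mean over the 6 arrays under 3.97, the 30th percentile, excluded a gene from testing, leaving 12426. Models were fitted in R 4.3.3 using lmFit and eBayes of limma 3.58.1, with line and array version as terms (3 residual degrees of freedom), and p-values were adjusted by Benjamini-Hochberg over all genes tested. All autophagy genes are named; from each related list up to 2 called genes per direction with the largest differences are named, with TFEB, TFE3, MITF, FOXO3, MTOR and PRKAA1 whatever their call; 1 called gene of these lists is not reported here. The genes, lists and tests were chosen with earlier results of these data known, and the promoter forms TCACGTGA and TCATGTGA were added later. A listed gene missing under its symbol was matched by synonym. No protein sequences were used here. The fit was tested on simulated data. The number of arrays limits the precision, no detection calls were used, and p-values measure the spread between repeats of 1 line each. Alternatives were other covariates, filters, normalization, priors, row rules and single arrays left out.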

Additional observations from a re-analysis of the deposited data

Results flagged for a closer look

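The line difference of EPG5 depended on the array version. It was -0.33 in the first repeat, on the 1.0 arrays, and -1.33 on average in repeats 2 and 3, on the 2.1 arrays, a difference of -0.99 (SE 0.22, limma adjusted p = 0.040). With 1 array per line on version 1.0, the error of this test comes from repeats 2 and 3. Array version, RNA kit and repeat changed together and cannot be told apart.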

How the results depend on the processing

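The median difference of the autophagy genes stayed negative in every fit run, and 3 higher and 11 lower calls were obtained with no filter on dim genes, quantile normalization, the mean of a symbol's rows and a robust prior. The share of all genes called was 19.4%, 27.2%, 26.6% and 26.3% in these fits. Without the array version term there were 4 higher and 15 lower (all genes 4711, 37.9%), and with a trended prior 3 and 10 (27.2%). With a filter at the 50th percentile there were 3 and 9 (31.2%), and on the 2.1 arrays alone 2 and 9 (31.5%). The filter at the 50th percentile also left ATG10, MAP1LC3A, ATG4B and ATG16L2 untested. Leaving out 1 array at a time gave 1 to 2 higher calls, 4 to 9 lower calls, 1400 to 3913 calls over all genes against 3340 with all arrays, and medians from -0.25 to -0.15; these fits have fewer samples. Differences near 0 turned sign: ATG9A to 0.038 with the mean of its rows, OPTN to -0.14 on the 2.1 arrays alone, and, over the fits without 1 array, BECN1 (-0.005 to 0.068), ATG9A (-0.253 to 0.048), OPTN (-0.14 to 0.28), PIK3R4 (-0.016 to 0.105), ATG16L2 (-0.17 to 0.001) and FOXO3 (-0.221 to 0.031); the cause was not tested. With the replicate number as a block, 2398 genes (19.3%), 2 higher and 9 lower autophagy genes were called. The ULK1, ULK2, ATG12 and MAP1LC3A calls then had an adjusted p from 0.061 to 0.073, and GABARAPL2 one of 0.047. Whether the numbers pair the samples could not be read from the values. Same-numbered deviations from the line means correlated at -0.998 for repeat 1, where the removal of the version effect forces opposite signs. Because the deviations of a line sum to 0, this also pulls the correlations of repeats 2 and 3 (-0.26 and -0.40) below 0. Depth has no count on arrays, and signal over background was not assessed.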

Other observations

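For 4 pairs of paralogs the difference between the line differences was computed on each pair of same-numbered arrays, as a description. The paralogs were chosen after their values were seen, because their differences lay apart. An exact permutation test gave p = 0.1 for each of the 4. This is the smallest value that 3 arrays per line allow, so the test could not call any of them. WIPI2 minus WIPI1 was -1.27 log2 (pairs -1.19, -1.33 and -1.298) and ATG16L2 minus ATG16L1 was 0.97 (1.48, 0.91 and 0.52). ULK2 minus ULK1 was 0.73 (0.94, 0.58 and 0.68) and ATG2B minus ATG2A was 0.60 (0.43, 0.73 and 0.65).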
